A study of Mus musculus with 10 samples.

Results

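The myosin genes of the ventricle were followed across the heart of C57BL/6N mice, in pieces of right ventricle (RV), left ventricle (LV) and septum, the wall between them. The set holds 9 listed symbols: the cardiac heavy chains Myh6 and Myh7, the related heavy chains Myh7b and Myh14, the light chains Myl1, Myl2 and Myl3, and the light chain kinases Mylk3 and Mylk4. A probe belonged to the set when the RefSeq accession in its array annotation matched a listed symbol. This gave 13 probes of 8 genes, out of 56605 probes and 22911 named genes on the array, and no probe matched Mylk4. The study divided hearts into the 3 regions in order to find transcripts that mark the RV, and total RNA of each piece was hybridised to an Agilent array with the dye Cy3. There were 4 RV, 3 LV and 3 septum arrays, and all animals were untreated as far as the labels say. Their age and sex are not given in the labels, the design text says only that different individuals were used for each experiment, and whether a replicate number marks a heart is not stated. The p-values below therefore measure the spread between these samples.

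A myosin heavy chain is the motor of the thick filament, and each carries an essential and a regulatory light chain. Myh6 encodes α-myosin heavy chain, the fast form that dominates the adult mouse ventricle, and Myh7 encodes β-myosin heavy chain, the slower form of the fetal ventricle, which returns under load. Myh7b is a slow-type heavy chain gene that hosts a microRNA, and Myh14 encodes a non-muscle heavy chain. Myl2 and Myl3 encode the regulatory and the essential light chain of the ventricle, while Myl1 encodes the essential light chain of fast skeletal muscle. Mylk3 encodes the cardiac kinase that phosphorylates Myl2. Myh6 and Myh7 lie next to each other in the genome and are known to respond to thyroid hormone in opposite directions.

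The start regions of the 2 main heavy chain genes are shown because the results turn on the relation of Myh7 to Myh6. They are the RefSeq windows of build GRCm38.p6, both on the minus strand, from 250 bases before to 50 bases after an annotated start. The Myh6 window is chr14:54966558-54966857, and the Myh7 window, the first of 2 that RefSeq starts give, is chr14:54994577-54994876. Capitals mark matches on either strand to TATAAA (the TATA box), CATTCC (the MCAT element bound by TEAD factors) and AGGTNA (the core of a thyroid hormone receptor site).
Myh6: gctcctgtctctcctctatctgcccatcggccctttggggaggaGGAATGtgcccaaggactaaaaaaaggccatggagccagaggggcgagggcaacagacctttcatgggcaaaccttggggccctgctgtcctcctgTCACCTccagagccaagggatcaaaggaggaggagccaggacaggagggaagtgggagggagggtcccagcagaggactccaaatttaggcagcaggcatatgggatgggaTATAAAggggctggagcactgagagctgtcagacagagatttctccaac
Myh7: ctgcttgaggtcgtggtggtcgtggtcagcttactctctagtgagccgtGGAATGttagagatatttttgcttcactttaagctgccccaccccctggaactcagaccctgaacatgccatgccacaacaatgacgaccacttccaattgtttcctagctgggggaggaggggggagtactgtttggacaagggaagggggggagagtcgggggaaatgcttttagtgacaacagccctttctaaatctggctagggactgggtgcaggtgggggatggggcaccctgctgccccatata
The Myh6 window held 1 match to each motif, and the Myh7 window shown held the MCAT letters alone. The TATAAA match in Myh6 began at position 1, which is not before the annotated start. The second Myh7 window, not shown, held 0 matches to each motif. Such letters are common. TATAAA was in 13.6% of 32851 mouse windows of this length, CATTCC in 14.7% and AGGTNA in 42.3%.

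Myh6, Myh7 and Myh7b each hold a microRNA of related sequence in an intron. Their mature RefSeq sequences are given as a feature that the genes share, with the seed (bases 2 to 8) in capitals. In GRCm38.p6 they lie at chr14:54949072-54949093 and chr14:54975710-54975731 on the minus strand and at chr2:155622893-155622913 on the plus strand, in the order below. The levels of these microRNAs were not analysed here.
mmu-miR-208a-3p (in Myh6): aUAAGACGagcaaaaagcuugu
mmu-miR-208b-3p (in Myh7): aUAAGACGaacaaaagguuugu
mmu-miR-499-5p (in Myh7b): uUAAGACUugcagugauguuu
The seeds of miR-208a and miR-208b were the same at 7 of 7 bases, and that of miR-499 matched theirs at 6 of 7.

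Between 53.7% and 64.0% of the spots on an array were well above background and 0 were saturated. All 10 cardiomyocyte markers, such as Actc1, Tnnt2 and Ryr2, passed the detection filter. The arrays lay on 2 slides. Slide 1 held replicates 1 and 2 of each region, and slide 2 held RV3, RV4, LV3 and Septum3. The slides stood apart, with 43.8% of tested probes differing between them, so values within slides and with slide as a block are given where they bear on a result. A level below is the log2 signal relative to the array's 75th percentile, and a difference is a log2 difference of group means. Levels of different probes cannot be set against each other. Of the 13 myosin probes, 12 were tested, and a gene was judged by its brightest probe. The files used here hold no probe sequences, so whether a probe also binds a related myosin transcript was not tested, and every value of this family carries that uncertainty.

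Among the myosin genes, Myh7 varied most between regions. Its level was 3.12, 2.55, 3.74 and 3.36 in RV replicates 1 to 4. It was 4.63, 3.33 and 4.12 in LV replicates 1 to 3, and 5.58, 3.99 and 5.62 in septum replicates 1 to 3. Each RV array was below each septum array, while the LV overlapped with both neighbours: RV3 lay above LV2, and Septum2 lay below LV1. The group means ± SD were 3.19 ± 0.50 in the RV (n = 4), 4.03 ± 0.66 in the LV (n = 3) and 5.06 ± 0.93 in the septum (n = 3). Within each of replicate numbers 1, 2 and 3 the order was RV, LV, septum.

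The Myh7 difference between RV and septum was -1.87 (SE 0.46, 95% interval -2.90 to -0.84), and it did not pass the test across all probes (limma, adjusted p = 0.0818). A slide block gave -1.97 (adjusted p = 0.0268) and a replicate number block gave -1.93 (adjusted p = 0.0126), so both brought it past the threshold of 0.05. Within slide 1 alone the difference was -1.95 (adjusted p = 0.218) and within slide 2 it was -2.07 (adjusted p = 0.0515). Without septum replicate 2, whose Myh7 level was the lowest of its group, it was -2.41 (adjusted p = 0.0472). Between RV and LV, Myh7 differed by -0.83 (SE 0.46, adjusted p = 0.361), with an interval from -1.86 to 0.19. Between septum and LV it differed by 1.03 (SE 0.49, adjusted p = 1), with an interval from -0.06 to 2.13. The F test over the 3 regions gave an adjusted p of 0.126, where 2.78% of probes were called.

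No myosin gene passed the test without a block, 0 of 8 in each of the 3 comparisons. The background was 3.86% of tested probes between RV and LV, 2.08% between RV and septum and 0% between septum and LV (863 probes at an unadjusted p under 0.05 there). At an unadjusted p under 0.05 the counts were 0, 1 and 0 of 8, the gene being Myh7. Over all 30236 tested probes they were 5993, 4249 and 863. Tukey's test without adjustment over probes gave the same counts of myosin genes, against 4093, 2785 and 445 probes. With slide as a block the counts of called genes were 0, 1 and 0, against backgrounds of 17.6%, 8.74% and 0.0463%. Under the replicate number block they were also 0, 1 and 0, against 14.9%, 7.12% and 0%. Myh7 was 1 of 8 genes without overlap between RV and septum, where 13.7% of probes did not overlap.

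**Figure D1:**
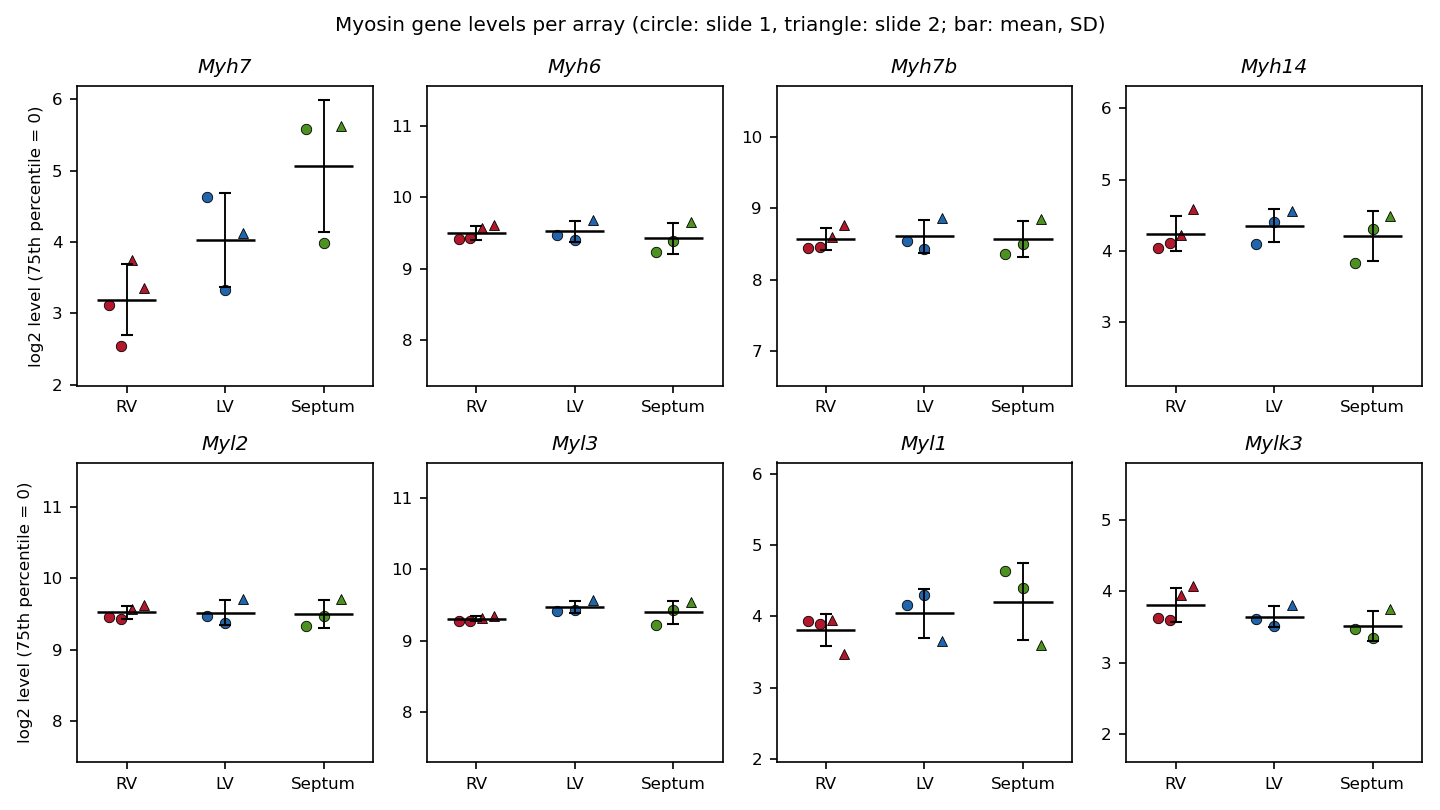
Levels of the 8 myosin genes by region, each on its brightest probe, as log2 signal relative to the 75th percentile of the array. Points are arrays (circles slide 1, triangles slide 2), bars show the mean and SD, and each panel spans the same number of log2 units. The Myh7 mean is 3.19 in the RV, 4.03 in the LV and 5.06 in the septum, and in the other panels the group means lie closer together.

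Taking Myh7 over Myh6 on the same array removes whatever scales both signals alike. The log2 ratio was -6.30, -6.88, -5.83 and -6.25 in RV replicates 1 to 4. It was -4.84, -6.08 and -5.57 in LV replicates 1 to 3 and -3.65, -5.41 and -4.03 in septum replicates 1 to 3. The ratio spans 2 probes, so its size carries no meaning and only its differences between arrays do. RV and septum arrays did not overlap, while RV3 lay above LV2, and Septum2 lay below LV1. The mean ± SD was -6.32 ± 0.43 in the RV (n = 4), -5.50 ± 0.62 in the LV (n = 3) and -4.36 ± 0.92 in the septum (n = 3).

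The ratio was 3.87-fold higher in the septum than in the RV, a log2 difference of -1.95 for RV minus septum (SE 0.50). The exact two-sided permutation p was 0.0286, the smallest that 4 against 3 arrays allow, and 0.0857 after adjustment over the 3 pairs. It was 1.76-fold higher in the LV than in the RV (difference -0.82, SE 0.50, exact permutation p = 0.0857, adjusted 0.129). It was 2.19-fold higher in the septum than in the LV (difference 1.13, SE 0.54, exact permutation p = 0.2), where 3 against 3 arrays cannot go below 0.1. Permuted within slides only, the exact permutation p was 0.0556 for RV against septum over 18 assignments, and 0.111 for RV against LV. Both were 0.167 after adjustment, and septum against LV gave 0.333. Over all 3 regions the exact permutation test of F gave p = 0.0248 over 4200 assignments, and 0.0389 when arrays were permuted within slides only. That result rests on single arrays. It was 0.0627 without septum replicate 1, 0.0563 without septum replicate 3 and 0.05 without LV replicate 3.

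Paired by replicate number, RV minus septum was -2.64, -1.48 and -1.79 for numbers 1, 2 and 3. RV minus LV was -1.46, -0.81 and -0.25, and septum minus LV was 1.19, 0.67 and 1.54. Each pair thus kept the order of the group means, and an exact sign-flip test of 3 pairs cannot go below 0.25, the value it gave in each comparison. Within slide 1 the ratio differed by -2.06 between RV and septum, and within slide 2 by -2.01. For RV minus LV the values were -1.13 and -0.47, and for septum minus LV 0.93 and 1.54. On the dimmer Myh6 probe, an alternative added after the values were seen, the 3 differences were -0.71 for RV minus LV, -1.83 for RV minus septum and 1.11 for septum minus LV.

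**Figure D2:**
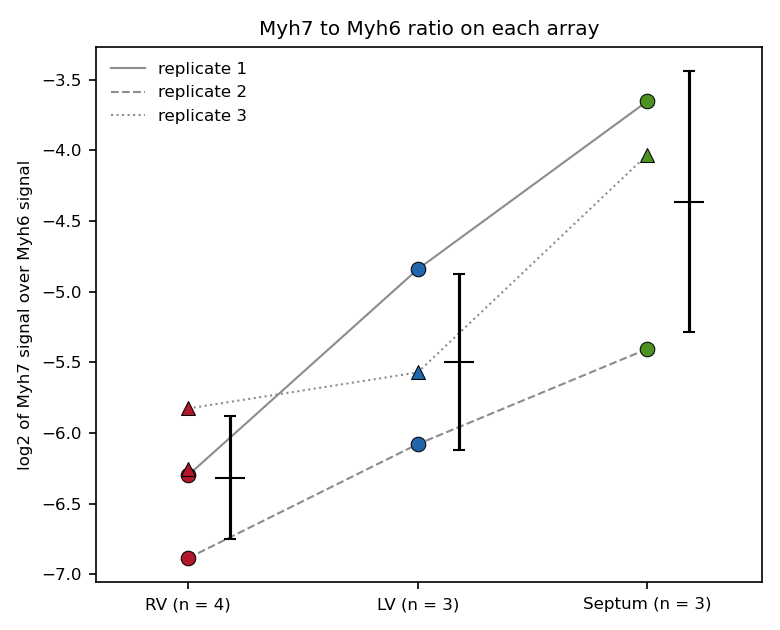
Log2 of the Myh7 signal over the Myh6 signal on each array, by region. Points are arrays (circles slide 1, triangles slide 2), grey lines join arrays with the same replicate number, RV4 has no partner, and bars beside the points show the mean and SD. Every line rises from RV to LV to septum, and RV arrays (-6.88 to -5.83) stay below septum arrays (-5.41 to -3.65).

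The denominator, Myh6, differed between regions by no more than its spread within them. The level of Myh6 was 9.42, 9.43, 9.57 and 9.61 in RV replicates 1 to 4. It was 9.47, 9.41 and 9.69 in LV replicates 1 to 3, and 9.23, 9.39 and 9.65 in septum replicates 1 to 3. The regions overlapped throughout, and the differences were -0.02 for RV minus LV (95% interval -0.27 to 0.24), 0.08 for RV minus septum (-0.18 to 0.34) and -0.10 for septum minus LV (-0.38 to 0.18). The dimmer Myh6 probe differed by -0.12, -0.04 and -0.08 in the same order, with the opposite sign to the brighter probe between RV and septum. On the brighter probe the sign for RV minus LV also turned under 3 other scalings or background corrections, to values between 0.0048 and 0.039.

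Myh7b, the heavy chain gene that hosts miR-499, overlapped between regions in the same way. Its level was 8.45, 8.46, 8.60 and 8.77 in the RV, 8.54, 8.43 and 8.87 in the LV, and 8.36, 8.50 and 8.85 in the septum, in replicate order. The 3 regions covered nearly the same range, with differences of -0.04 (95% interval -0.38 to 0.29), -0.00061 (-0.33 to 0.33) and -0.04 (-0.40 to 0.31) for RV minus LV, RV minus septum and septum minus LV. The non-muscle gene Myh14 was at 4.05, 4.11, 4.23 and 4.59 in the RV, 4.11, 4.41 and 4.56 in the LV, and 3.83, 4.31 and 4.50 in the septum. Its differences were -0.11 (-0.54 to 0.31), 0.03 (-0.39 to 0.46) and -0.15 (-0.60 to 0.31), and the sign between RV and septum turned with slide as a block (-0.02). A dimmer Myh14 probe was well above background on 5 of 10 arrays and was not tested.

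Of the ventricular light chains, Myl2 differed between regions by less than the spread of its arrays. Its level was 9.45, 9.43, 9.58 and 9.63 in the RV, 9.47, 9.38 and 9.71 in the LV, and 9.33, 9.47 and 9.72 in the septum. The differences were 0.0040 (95% interval -0.26 to 0.27), 0.02 (-0.24 to 0.28) and -0.01 (-0.29 to 0.27) for RV minus LV, RV minus septum and septum minus LV, and each sign turned under at least 1 other scaling or block. Myl3, its partner on the same heavy chain, was at 9.27, 9.28, 9.32 and 9.35 in the RV, 9.42, 9.43 and 9.56 in the LV, and 9.22, 9.43 and 9.54 in the septum. Each RV array lay below each LV array for Myl3, the only myosin gene without overlap between these regions, where 19.1% of all probes did not overlap. For Myl3, RV minus LV was -0.16 (SE 0.09, adjusted p = 0.344), or -0.19 under the slide block (adjusted p = 0.0797). Against the septum it was -0.09 (SE 0.09, adjusted p = 0.715).

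Myl1, the light chain of fast skeletal muscle, was the most variable light chain gene. On its brightest probe the level was 3.93, 3.89, 3.95 and 3.48 in the RV, 4.16, 4.30 and 3.66 in the LV, and 4.63, 4.39 and 3.6 in the septum. The lowest value in each region came from slide 2, and Septum1 was the highest of all arrays on each of the 3 Myl1 probes. The differences on the brightest probe were -0.23 (SE 0.25, adjusted p = 0.680) for RV minus LV, -0.39 (SE 0.25, adjusted p = 0.547) for RV minus septum and 0.17 (SE 0.27, adjusted p = 1) for septum minus LV. On the probe A_55_P2499158 the difference between RV and septum was -0.86 (SE 0.43, adjusted p = 0.418). Within slide 2 alone the brightest probe gave 0.12, the opposite sign. Septum1 also carried the highest level of atrial light chains, with Myl4 at 7.71 and Myl7 at 6.90 against at most 5.63 and 4.60 on the other 9 arrays, and the highest score of the atrial marker list (6 of 7 genes tested, Bmp10 not well above background throughout any region, score 2.5, against -1.52 to 0.79 elsewhere). The part of atrial tissue in the Myl1 values was not tested.

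For the kinase gene Mylk3 the differences had the opposite sign to those of Myh7. Its level was 3.62, 3.6, 3.96 and 4.07 in the RV, 3.62, 3.52 and 3.81 in the LV, and 3.47, 3.34 and 3.75 in the septum. The regions overlapped. The difference was 0.16 (SE 0.15, adjusted p = 0.604) for RV minus LV, 0.29 (SE 0.15, adjusted p = 0.424) for RV minus septum and -0.13 (SE 0.16, adjusted p = 1) for septum minus LV. With slide as a block RV minus septum was 0.24 (adjusted p = 0.0519). The dimmer Mylk3 probe gave 0.25 for the same pair (SE 0.10, adjusted p = 0.324).

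**Figure D3:**
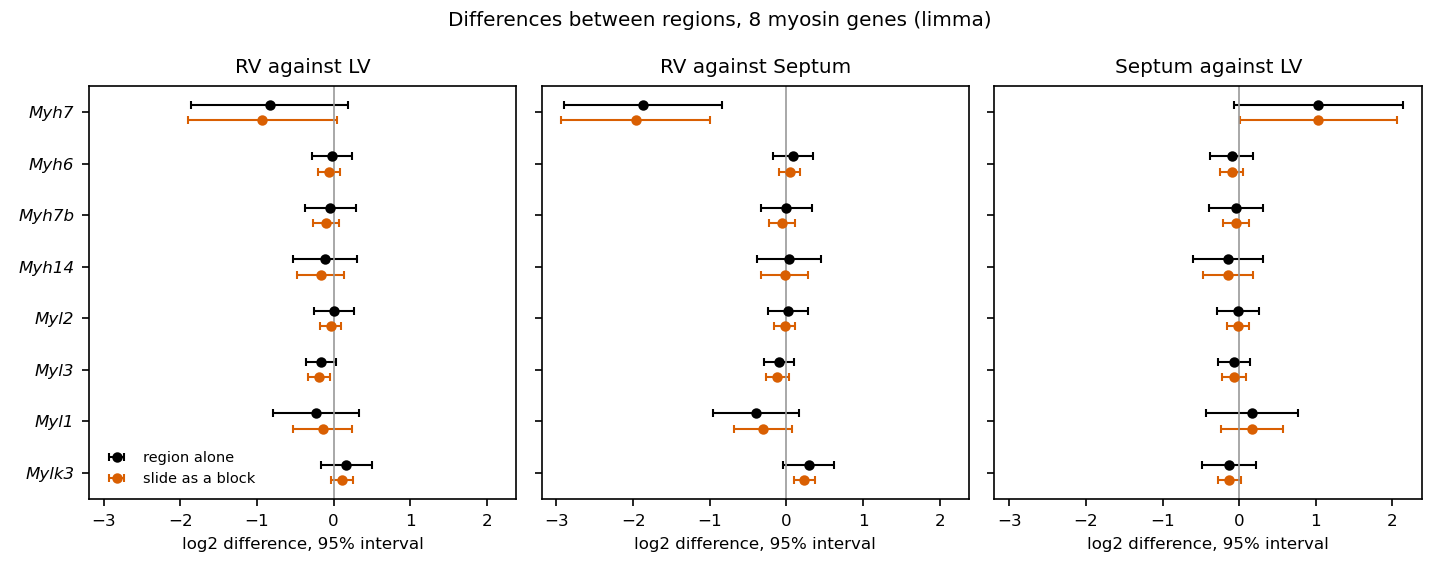
Log2 differences between regions for the 8 myosin genes with 95% intervals from limma, for the fit on region alone (black) and with slide as a block (orange). The Myh7 interval for RV against septum runs from -2.90 to -0.84, and the points of the other 7 genes lie between -0.39 and 0.29.

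Between the slides, 6 of 8 myosin genes passed the test, against 43.8% of all tested probes. Myh6 ran from 9.23 to 9.47 on slide 1 and from 9.57 to 9.69 on slide 2, a difference of 0.24 (adjusted p = 0.00738). Myl2 ran from 9.33 to 9.47 on slide 1 and from 9.58 to 9.72 on slide 2 (0.24, adjusted p = 0.00655). Myh7b ran from 8.36 to 8.54 and from 8.60 to 8.87 (0.33, adjusted p = 0.00358). For these 3 genes no array of slide 1 reached the lowest array of slide 2. Mylk3 did the same on its brightest probe, with 3.34 to 3.62 and 3.75 to 4.07 (0.34, adjusted p = 0.00163). The dimmer probes did not pass, with 0.04 for Mylk3 (adjusted p = 0.705) and 0.14 for Myh6 (adjusted p = 0.0540). Myh14 was also higher on slide 2 (0.35, adjusted p = 0.0393), and Myl1 was lower, with differences of -0.51 on its brightest probe (adjusted p = 0.0194) and of -0.82 and -0.68 on the other probes. Myl3 differed by 0.13 (adjusted p = 0.0905) and Myh7 by 0.58 (SE 0.36, adjusted p = 0.219), neither past the threshold.

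The genes whose levels followed Myh7 most closely over the 10 arrays were Zfp597 (Pearson r = 0.937), Map2k3os (0.929), Sesn3 (0.922), Spop (0.918) and Lbh (0.904), out of 14624 named genes. These are descriptions over arrays that share regions and slides, with no test.

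Other thick filament genes were taken from a list of 14, of which 10 were detected and tested. The skeletal heavy chain genes Myh1, Myh2, Myh3 and Myh4 were the 4 that were not. The heavy chain genes Myh8 and Myh13 were tested, with levels of 8.50 to 9.15 and of 8.93 to 9.18. For these 2 genes RV minus LV was 0.04 and -0.11 (adjusted p = 0.946 and 0.530). Whether their probes bind another myosin transcript was not tested. Between RV and LV 0 rose and 1 fell, where 2.31% of all probes rose and 1.55% fell. Between RV and septum 0 rose and 2 fell, where 1.2% of probes rose and 0.873% fell. Under the slide block 3 genes fell in each comparison, Mybpc2, Mybpc3 and Ttn, against 10.4% of probes that fell between RV and LV and 4.72% between RV and septum. The list median was -0.01 between RV and LV, against -0.04 over all probes, and -0.39 between RV and septum, against -0.03. Mybpc3, which encodes the cardiac myosin binding protein C, was at 8.66, 8.73, 8.79 and 8.80 in the RV, 9.19, 9.23 and 9.22 in the LV, and 9.06, 9.20 and 9.19 in the septum. It fell in the RV by 0.47 against the LV (SE 0.07, adjusted p = 0.00892) and by 0.40 against the septum (SE 0.07, adjusted p = 0.0247), and was -0.51 and -0.43 within slide 1 (adjusted p = 0.0472 and 0.0827) and -0.43 and -0.40 within slide 2 (0.179 and 0.221). RV arrays did not overlap with either region. The call against the LV held with each array left out in turn, and that against the septum in 5 of 10 cases. Of 10 cardiomyocyte markers, all tested, 0 were higher in the RV than in the LV and 4 were higher in the RV than in the septum (Tnnt2, Tnni3, Mb and Cox6a2). The marker called without a block was Tnnc1, the cardiac troponin C gene, which fell by 0.38 against the LV and by 0.37 against the septum. The list scored -0.11 to -0.04 in the RV, 0.04 to 0.15 in the LV and -0.06 to 0.10 in the septum, with Septum1 inside the RV range, and the part of cell mixture was not tested. In bulk tissue, fewer cells of a type and less RNA per cell cannot be told apart.

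Mybpc2, the fast skeletal isoform of myosin binding protein C, was at -0.55, -0.36, 1.19 and 0.36 in the RV, 1.53, 1.51 and 1.75 in the LV, and 2.02, 1.72 and 2.27 in the septum. All RV arrays were below all others. The difference was -1.84 against the septum (SE 0.36, adjusted p = 0.0368) and -1.44 against the LV (SE 0.36, adjusted p = 0.0604). Against the LV both blocks changed the call, with -1.55 under the slide block (adjusted p = 0.00667) and -1.50 under the replicate block (adjusted p = 0.0286). Within slides the values were -2.32 and -1.49 against the septum and -1.97 and -0.98 against the LV, for slides 1 and 2. Against the septum the adjusted p was 0.00682 within slide 1 and 0.18 within slide 2. Tukey's test joined with an adjustment over probes, which the methods do not name, did not call Mybpc2 in either comparison. The call against the septum held in 1 of 10 cases when an array was left out, with RV replicate 3 the one omitted. Of 9 skeletal muscle markers 6 were tested, and the defining genes Actn3, Myh1 and Myh4 were not well above background on every array of any region. The skeletal list, which includes Mybpc2, scored -0.31 to -0.08 in the RV, -0.10 to 0.07 in the LV and 0.31 to 0.34 in the septum. Between RV and LV 3 of 6 tested members were higher in the RV. Mybpc2 differed there by -1.44, and Tnnt3, Tnni2, Mylpf, Atp2a1 and Pvalb by between -0.28 and 0.28. Of the 6 tested members 3 were higher and 3 lower in the RV than in the septum. The calls were Mybpc2 itself and Pvalb, which encodes parvalbumin and fell by 1.83 (adjusted p = 0.00151). Under the slide block Tnni2, the fast skeletal troponin I gene, rose by 0.36 against the LV (adjusted p = 0.0182) and by 0.39 against the septum (adjusted p = 0.0225). The part of skeletal muscle in the Mybpc2 and Myh7 values was not tested. The atrial genes had the widest spread of the thick filament list: Myl4 differed by -1.80 (SE 0.998, adjusted p = 0.473), Myl7 by -1.43 (SE 1.04, adjusted p = 0.610) and Mybphl by -1.78 (SE 1.22, adjusted p = 0.585) between RV and septum.

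The smooth muscle and non-muscle myosins formed a list of 8 genes, all tested, and 0 were called without a block. At an unadjusted p under 0.05 there were 4 between RV and LV and 3 between RV and septum, where 5993 and 4249 of all 30236 tested probes were. Tukey's test joined with the adjustment over probes called 0. For the lists no count by Tukey's p alone is given. In the comparison of RV with LV 7 of 8 were higher, and the median was 0.20 against -0.04 over all probes. Myh11, the smooth muscle heavy chain, differed by 1.38 (SE 0.41, adjusted p = 0.0991) and Myl9, its regulatory light chain, by 1.22 (SE 0.31, adjusted p = 0.0623). Myl12a, a non-muscle regulatory light chain, differed by -0.45 (SE 0.13, adjusted p = 0.0843). With slide as a block 3 genes rose (Myh11, Myl6 and Myl9) and 1 fell (Myl12a) against the LV, where 7.25% of probes rose and 10.4% fell. The smooth muscle marker list, of which 5 of 6 genes were tested, was highest in the RV, with scores of -0.03 to 1.18, -0.56 to -0.33 in the LV and -0.76 to 0.10 in the septum. Acta2, a defining gene of that list, ran the other way, at 6.29 to 6.64 in the RV and 6.68 to 6.96 in the LV.

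Among 13 genes of the kinases and the phosphatase that act on light chains, all tested, 0 were called without a block in each comparison. At an unadjusted p under 0.05 there were 2 against the LV and 2 against the septum, where 5993 and 4249 of all 30236 tested probes were. Tukey's test joined with the adjustment over probes called 0. The median was 0.06 between RV and LV and 0.07 between RV and septum. Ppp1r14a, which encodes an inhibitor of myosin phosphatase, differed by 1.03 between RV and LV (SE 0.26, adjusted p = 0.0602), and Mylk, the smooth muscle kinase, by 0.59 (SE 0.32, adjusted p = 0.343). The kinase gene Dapk3 differed by -0.41 between RV and septum (SE 0.28, adjusted p = 0.578). With slide as a block 2 genes rose against the LV, Ppp1r14a and Mylk, and 1 fell, Camk2d, by 0.38 (adjusted p = 0.00208). Of all probes 7.25% rose and 10.4% fell there. Against the septum 2 rose and 1 fell under the same block, where 4.03% and 4.72% of probes did.

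Of 8 genes for myosin folding and turnover, all tested, 0 were higher in the RV than in the LV. In each comparison 1 fell, where 1.55% of all probes fell against the LV and 0.873% against the septum. The median was -0.28, against -0.04 over all probes, and -0.26 between RV and septum. The called gene in both comparisons was Csrp3, the muscle LIM protein, at 7.13, 7.08, 7.21 and 7.01 in the RV, 7.50, 7.37 and 7.42 in the LV, and 7.45, 7.44 and 7.46 in the septum. It fell by 0.32 against the LV (SE 0.07, adjusted p = 0.0421) and by 0.34 against the septum (SE 0.07, adjusted p = 0.0477), with no overlap. Within slides it was -0.33 and -0.31 against the LV and -0.33 and -0.35 against the septum, none of them past the threshold (adjusted p = 0.0884 and 0.320 against the LV, and 0.123 and 0.329 against the septum, for slides 1 and 2). The call against the LV was also lost with quantile normalization (adjusted p = 0.0854), and both calls were lost with scaling on probes detected on all arrays (0.0861 and 0.0801). Each of the 2 calls held in 1 of 10 cases when an array was left out, with RV replicate 3 the one omitted. The ubiquitin ligase genes Trim54, Trim63 and Fbxo32 differed by -0.47, -0.33 and -0.36 between RV and LV, none past the threshold without a block (adjusted p = 0.0984, 0.192 and 0.322). The slide block gave 3 genes of the list that fell against the LV, Csrp3 (adjusted p = 0.0116), Trim54 (0.00995) and Fbxo32 (0.0425), where 10.4% of probes fell. Against the septum Csrp3 and Trim54 fell, 2 of 8, where 4.72% of probes did.

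The list set up for regulators of the choice between Myh6 and Myh7 held 27 genes reported here, of which 26 were tested and Dio3 was not. Whether each of them governs that choice was not tested. Between RV and LV 0 rose and 1 fell, where 1.55% of all probes fell. Between RV and septum 0 were called. There 1 gene had an unadjusted p under 0.05, against 4249 of all 30236 tested probes. Tukey's test joined with the adjustment over probes called 1 gene there, against 752 probes. The medians were -0.13 for RV minus LV and -0.09 for RV minus septum. Rxrg, a retinoid receptor that pairs with the thyroid hormone receptor, was at 4.50 to 4.58 in the RV and 4.78 to 4.86 in the LV, and fell by 0.29 (SE 0.06, adjusted p = 0.0356). Within slides 1 and 2, RV minus LV was -0.28 and -0.31 for Rxrg (adjusted p = 0.104 and 0.263). With quantile normalization, with scaling on probes detected on all arrays and with normexp its call was lost (adjusted p = 0.0854, 0.0811 and 0.0583). Its call held in 0 of 10 cases when arrays were left out in turn. Dio2, which activates thyroid hormone, differed by 0.75 between RV and LV (adjusted p = 0.320), Tead1 by -0.41 (adjusted p = 0.256) and Srf by -0.35 (adjusted p = 0.258). Mhrt, a long noncoding RNA transcribed opposite to Myh7, differed by -0.13 between RV and LV and by -0.01 between RV and septum (adjusted p = 0.453 and 0.970). With slide as a block 0 genes of the list rose and 7 fell against the LV, Tead1 by 0.48 and Srf by 0.42 among them, so that 7 of 26 stood against 10.4% of all probes. Against the septum 5 fell under the same block, where 4.72% of probes did.

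**Figure D4:**
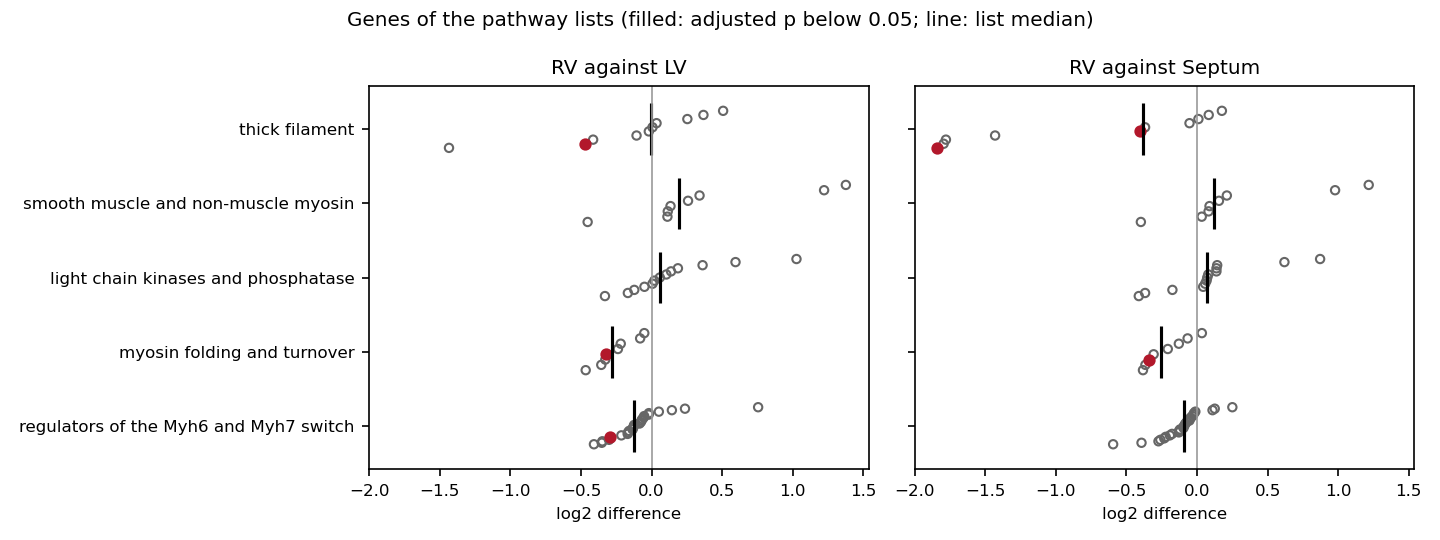
Log2 differences of the genes in the 5 pathway lists, RV against LV on the left and RV against septum on the right, from the fit on region alone. Each point is a gene, filled where the adjusted p was below 0.05, and the upright line is the list median. Few points are filled: Mybpc3, Csrp3 and Rxrg on the left, and Mybpc2, Mybpc3 and Csrp3 on the right.

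Other tissue markers also differed between the regions. All 8 markers of the conduction system were tested, and their score was 0.18 to 0.61 in the septum, -0.14 to 0.06 in the RV and -0.32 to -0.27 in the LV. Its members were split between RV and LV, with 4 of 8 higher in the RV, Etv1 called among them, and Irx3, Tbx3, Hcn4 and Cpne5 lower. Between RV and septum 2 were higher and 6 lower. Cntn2, a marker of the fast conduction cells, differed by -2.02 between RV and septum (adjusted p = 0.00956) and Cpne5 differed by -1.18 (adjusted p = 0.0422). The scores of the fat and outer lining markers were highest in the RV. Of 6 adipocyte markers, all tested, 5 rose against the LV and 2 against the septum, where 2.31% and 1.2% of all probes rose. Their score was 1.24 to 1.84 in the RV, -2.42 to -1.43 in the LV and -0.72 to 0.74 in the septum. Lep, an adipocyte marker of that list, ran the other way, with means of -0.28 in the RV, -0.14 in the LV and -0.22 in the septum. Of 6 mesothelium markers, all tested, 5 rose against the septum and 0 against the LV. Under the slide block 6 rose against the septum and 5 against the LV, where 4.03% and 7.25% of probes did. Their score was 0.57 to 2.04 in the RV, -0.58 to 0.23 in the LV and -3.16 to -0.74 in the septum. All 6 fibroblast markers were higher in the RV than in either other region. Tcf21, Pdgfra and Dcn rose against the LV and Tcf21 against the septum, and the score was -0.01 to 0.61 in the RV, -0.43 to -0.22 in the LV and -0.13 to 0.01 in the septum. The atrial list, given above for Septum1, had 6 of 6 tested genes higher in the septum than in the LV. Of these genes 5 of 6 were higher in the septum than in the RV. In either comparison 0 were called (2 and 1 at an unadjusted p under 0.05, against 863 and 4249 of all 30236 tested probes). Tukey's test joined with the adjustment over probes also called 0. Between RV and LV 4 of 6 tested atrial genes were higher in the RV. The 1 called was Dkk3, which rose by 3.08 (adjusted p = 0.0100), where 2.31% of all probes rose. Nppa, which encodes atrial natriuretic peptide, ran the other way there. It differed by -2.21 between RV and LV (adjusted p = 0.0504) and by -2.32 between RV and septum (adjusted p = 0.0605). With slide as a block Nppa fell in both (adjusted p = 0.0292 and 0.0384). The part of these cells in the myosin values was not tested.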

How the data were processed

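Total RNA of powdered frozen RV, LV and septum tissue was labelled with Cy3 and hybridised to single-colour Agilent mouse arrays. Groups and replicate numbers were read from the sample titles, and each array counted as 1 replicate. The number of arrays limits the precision. The authors made the deposited intensity values with Feature Extraction (version 11.5.1.1), which subtracted background and flagged spots, with no scaling between arrays. Log2 values per probe, deposited by the authors as a further table, served as an alternative, and 100% of them lay within 0.05 of the values computed here.

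After removal of control spots and of 56 to 128 outlier spots on an array, log2 processed signals were averaged per probe and set relative to their 75th percentile on that array. Testing was limited to the 30236 probes flagged well above background throughout at least 1 region. Probes were named by RefSeq accession through a gene table of assembly GRCm38.p6 (32994 probes, 22911 genes). The members' accessions were taken from the same annotation. The comparison used limma 3.58.1 in R 4.3.3, with a mean per region over all 10 arrays, 2.46 prior degrees of freedom and Benjamini-Hochberg adjustment over all tested probes. Calls were made at an adjusted p below 0.05, and tests were two-sided. In the one-way ANOVA with Tukey's correction, a call needed Tukey's p and the adjusted p of F both below 0.05. The methods name no adjustment over probes. The F test and the pairwise differences of the Myh7 to Myh6 ratio were tested by exact permutation of the arrays. A list score is the mean, over tested genes, of the level after the gene's own mean was taken off. The fits were checked on simulated data.

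The members and lists were chosen with earlier results of these data known. Named genes are all members, the called genes of each pathway list and at most 3 others per list with the largest difference, and the 5 genes most like Myh7. Genes called only with slide as a block, cell markers, Mhrt, Myh8 and Myh13 were named after their values were seen. 1 gene of the list of Myh6 and Myh7 regulators is not reported here and was left out of that list's counts, medians and plot.

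The replicate number was checked as a pairing. Arrays with the same number deviated together from their region means in all 9 pairs (correlation 0.36 to 0.64). Pairs on different slides ran from -0.56 to -0.21 and pairs on the same slide with other numbers from 0.09 to 0.58. The number was therefore fitted as a block beside the fit without it.

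Alternatives were quantile normalization, other scalings, normexp background correction (offset 50, on median signals because no mean signal was given), the authors' table, other filters, slide and replicate blocks, each slide alone, the one-way ANOVA with Tukey's correction that the methods name, the mean of all probes of a gene, and leaving out each array.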

Additional observations from a re-analysis of the deposited data

Results flagged for a closer look

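RV replicate 4 stood apart from the other RV arrays on 3 of the 12 tested myosin probes. On the dimmer Myh6 probe it was the highest (5.17, against 4.95 to 4.98), and its gap to the nearest array was 0.853 of the range of the group. On the brightest Myl1 probe it was the lowest (3.48, against 3.89 to 3.95), with a gap of 0.865 of the range. On the Myl1 probe A_52_P273120 it was again the lowest (-0.95, against -0.44 to -0.39), with a gap of 0.913. Such a gap arises by chance in about 1 of 20 groups, and the Myl1 probes are not independent of each other. RV replicate 4 lay on slide 2. With it left out, the number of myosin genes called was 0 in each comparison, as it was with all arrays.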

How the results depend on the processing

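Each of the 24 differences of the 8 myosin genes was recomputed under 13 other settings and with each of the 10 arrays left out, 552 values in all. Of these, 499 kept their sign and 53 did not, over 14 differences. None of these sign changes was in Myh7 or Mylk3, and the cause was not tested.

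The number of myosin genes called between RV and septum was 0 and became 1 with slide as a block and 1 with the replicate block, and 0 to 1 when arrays were left out in turn, the gene being Myh7. The replicate block changed no other call of a myosin gene. The Myh7 difference between RV and septum ran from -2.41 to -1.59 when arrays were left out, with adjusted p from 0.0472 to 0.239, and was 0.243 with no filter on dim probes. The exact p of the Myh7 to Myh6 ratio over 3 regions ran from 0.00476 to 0.0627 when arrays were left out, and under the replicate block its paired differences gave 0.25 in each pair of regions.

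Signs turned as follows. Quantile normalization gave 0.0098 for Myh6 (RV minus LV), 0.048 for Myh7b (septum minus LV), and -0.018 (RV minus septum) and 0.067 (septum minus LV) for Myl2. Median scaling gave 0.042 for Myh7b (RV minus septum) and -0.018 for Myl2 (RV minus LV). Scaling on probes detected on all arrays gave 0.039 for Myh6 and 0.013 for Myh7b (RV minus LV), 0.033 for Myh7b (RV minus septum) and 0.0075 for Myl2 (septum minus LV). The normexp correction gave 0.0048 for Myh6 (RV minus LV) and 0.0092 for Myh7b (RV minus septum). The slide block gave -0.024 for Myh14 (RV minus septum), and -0.036 (RV minus LV) and -0.022 (RV minus septum) for Myl2. The replicate block gave -0.082 for Myh14 (RV minus septum), and -0.031 and -0.017 for Myl2 in the same 2 pairs. Slide 1 alone gave 0.021 for Myh7b (RV minus septum). Slide 2 alone gave -0.059 for Myh6 and -0.085 for Myh14 (RV minus septum), 0.056, 0.12 and -0.062 for Myl1, and -0.11, -0.11 and 0.0029 for Myl2 (RV minus LV, RV minus septum, septum minus LV). With arrays left out, the differences for RV minus LV ran from -0.073 to 0.067 for Myh6, -0.13 to 0.087 for Myh7b and -0.068 to 0.10 for Myl2. For RV minus septum they ran from -0.014 to 0.19 for Myh6, -0.11 to 0.14 for Myh7b, -0.16 to 0.18 for Myh14 and -0.070 to 0.12 for Myl2. For septum minus LV they ran from -0.18 to 0.087 for Myh7b, -0.29 to 0.046 for Myh14, -0.046 to 0.47 for Myl1, -0.12 to 0.083 for Myl2 and -0.14 to 0.018 for Myl3.

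Under median scaling and with no filter on dim probes, none of the 6 calls among list genes held. These genes kept their sign throughout, under alternatives added after the data were seen. The call of Mybpc3 against the LV held with each of the 10 arrays left out. Those of Csrp3 held in 1 of 10 in either comparison, that of Rxrg in 0, that of Mybpc2 in 1 and that of Mybpc3 against the septum in 5.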
